A study of Mus musculus with 6 samples.

Results

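The genes described here are Ms4a4b, Ms4a4c, Ms4a6b, Ms4a6c, Ms4a6d and Ms4a7, which are 6 of the 31053 mouse genes counted and 6 of the 19 whose symbol starts with Ms4a. They were chosen by symbol, and their unique molecular identifiers (UMIs, each standing for 1 captured transcript) were followed across groups of cells gated on marker genes: microglia, monocytes, natural killer (NK) cells, and cells gated on border macrophage markers. No gate used an Ms4a gene.

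The Ms4a genes encode a family of small proteins that cross the membrane several times and sit beside receptors at the cell surface or in endosomes. Its best known members are Ms4a1, the B cell antigen CD20, and Ms4a2, the beta chain of the high-affinity IgE receptor of mast cells and basophils, while the Ms4a4 and Ms4a6 genes are read mainly in myeloid and lymphoid cells. In the brain Ms4a7 is widely used to tell macrophages of the borders or of blood origin from microglia, and human variants near MS4A4A and MS4A6A are associated with Alzheimer disease and with the level of soluble TREM2.

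CD45+ immune cells were sorted from the tumour-bearing right hemisphere of female SCID mice, which lack mature T and B cells and keep NK and myeloid cells. Each mouse had received 50000 cells of U87, an established human glioblastoma line, by intracranial injection at 8 weeks of age. In 3 mice the U87 cells expressed the cytokine IL-33 and tissue was taken at 3 weeks. In the other 3 mice they carried the pcDNA 3.1 empty vector and tissue was taken at 6 weeks, so that the transgene and the time after implantation cannot be told apart. The 6 libraries (10x Genomics 3' chemistry, version 2) came as 1 matrix whose barcodes end in a suffix from 1 to 6, and the labels do not name the mouse behind a suffix. No suffix was assigned to a mouse by its cell count or depth, so IL-33 and pcDNA tumours are not compared here. All values cover both groups of mice together as 1 pool, and no test was run. Libraries are named by their suffix.

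The matrix held 40411 barcodes and 105560763 UMIs, from 9745192 to 24393841 per library, and 38751 barcodes passed the study's filters. Levels are given as CPM, the UMIs of a gene in every 1000000 UMIs of a group of cells; since 1 transcript gives 1 UMI near its 3' end whatever its length, levels were compared between genes on this scale. Intervals are exact Poisson 95% intervals for levels, exact binomial ones for ratios and Clopper-Pearson ones for shares, and all cover counting error only. Ranges over libraries use those with at least 20 cells of a group. Of the passing cells, 37177 were gated as microglia (median 2433 UMIs), 272 as monocytes (4651.5), 138 as NK cells (1782.5), 68 as granulocytes (876) and 192 as choroid plexus epithelium (1022.5), a cell type that should lack these genes. Another 290 cells held both a gate's markers and at least 3 microglial ones and were set aside as mixed, 10 met several gates equally, and 597 met none. The summed level of the 6 microglial gating genes was 13441 CPM in microglia and 636 CPM in monocytes, and the summed NK list was 17141 CPM in NK cells and 7.36 CPM in microglia.

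The libraries shared barcode sequences. In all, 14722 of the 40411 barcodes (36.4%) carried 1 of 3890 sequences found in more than 1 library, and 490 sequences were found in all 6. In 480 of these 490 sequences the libraries ranked in the same order by UMIs, with library 2 first, then 5, 1, 4, 6 and 3. Of the 3793 sequences with at least 2 passing copies, 3465 (91.4%) had every copy in the same group of cells. Shared sequences made up 37.5% of the microglia, with a median of 934 UMIs against 3113.5 in the unshared, and 4.78% of the monocytes and 5.07% of the NK cells. Whether the copies are separate cells was not tested, so the main results are given with all barcodes and with the unshared ones alone. Some values are given with 1 of these sets only.

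The 6 genes lie within 284 kb of mouse chromosome 19 (GRCm38, GENCODE M21), from chr19:11321039-11336146 (Ms4a7, minus strand) to chr19:11586604-11604849 (Ms4a6d, minus strand). Between them, on the plus strand, are Ms4a4c (chr19:11404770-11427246), Ms4a4b (chr19:11443553-11467055), Ms4a6c (chr19:11469366-11482192) and Ms4a6b (chr19:11516512-11531256). The span holds 9 protein-coding genes, of which 8 are Ms4a genes. Ms4a4c, Ms4a6c and Ms4a6b each overlap a non-coding gene or pseudogene on the opposite strand. Of the 98-base windows in their transcripts, the length of the read, 0.35% of those of Ms4a4b occur in Ms4a4c, 1.77% of those of Ms4a4c occur in Ms4a4b, and none of the other 4 members' windows occur in another member, so reads could be assigned to single members nearly throughout.

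Neighbouring members differed in where they were read, and the promoters of 2 such pairs are shown for that reason. RefSeq's promoter table (GRCm38.p6; 250 bases before the start and 50 from it) lists 5 of the 6 members; positions below count back from the base before the start as -1. Ms4a4b, highest in NK cells, and Ms4a4c, highest in monocytes, share a run of 20 identical bases, in capitals, at -41 to -22 in Ms4a4b (chr19:11443308-11443607, plus strand) and -38 to -19 in Ms4a4c (chr19:11407411-11407710, plus strand).
Ms4a4b: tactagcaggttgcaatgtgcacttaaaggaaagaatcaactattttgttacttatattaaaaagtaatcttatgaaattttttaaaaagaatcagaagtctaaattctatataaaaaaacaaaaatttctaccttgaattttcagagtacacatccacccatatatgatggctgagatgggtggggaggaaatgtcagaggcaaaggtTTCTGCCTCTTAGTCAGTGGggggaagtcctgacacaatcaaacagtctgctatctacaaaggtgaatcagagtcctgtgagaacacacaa
Ms4a4c: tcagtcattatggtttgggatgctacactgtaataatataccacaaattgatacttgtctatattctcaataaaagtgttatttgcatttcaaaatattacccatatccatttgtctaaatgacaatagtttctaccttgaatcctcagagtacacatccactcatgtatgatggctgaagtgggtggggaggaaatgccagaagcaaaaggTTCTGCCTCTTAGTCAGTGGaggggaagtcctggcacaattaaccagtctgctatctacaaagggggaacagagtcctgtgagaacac
Ms4a6b and Ms4a6c, the pair whose levels in microglia are compared below, share a run of 48 identical bases, from -118 to -71 in Ms4a6b and from -49 to -2 in Ms4a6c. Capitals here mark GAAANNGAA, a short form of the core of the interferon-stimulated response element, searched on both strands. It lies at -206 to -198 in Ms4a6b (chr19:11518309-11518608, plus strand) and at -133 to -125 in Ms4a6c (chr19:11469118-11469417, plus strand).
Ms4a6b: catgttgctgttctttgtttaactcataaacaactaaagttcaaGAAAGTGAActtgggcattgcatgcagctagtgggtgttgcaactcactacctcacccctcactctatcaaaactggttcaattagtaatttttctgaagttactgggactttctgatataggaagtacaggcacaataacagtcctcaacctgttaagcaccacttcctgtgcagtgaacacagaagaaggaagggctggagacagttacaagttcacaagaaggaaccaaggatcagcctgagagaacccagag
Ms4a6c: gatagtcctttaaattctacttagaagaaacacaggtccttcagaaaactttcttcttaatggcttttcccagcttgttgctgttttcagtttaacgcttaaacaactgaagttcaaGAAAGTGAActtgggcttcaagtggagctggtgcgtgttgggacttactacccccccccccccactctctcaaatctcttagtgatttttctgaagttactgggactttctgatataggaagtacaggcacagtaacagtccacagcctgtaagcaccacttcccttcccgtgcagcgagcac
The same short form was found at both listed starts of Ms4a7 and at neither that of Ms4a4b nor that of Ms4a4c. It was held by 8.56% of all 32851 promoters of this length. The longer form, with a further A at its end, was held by 3.44% of them and by none of the listed members. The PU.1-type sequence GAGGAAGT, searched likewise, was held by 3.20% of them and by none of the listed members. These matches describe the letters of the windows only.

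All 6 genes were higher in monocytes than in microglia, and Ms4a6c led them. Ms4a6c stood at 1556 CPM in the 272 monocytes (95% interval 1487 to 1626), with 1490, 1335 and 1661 CPM in libraries 4, 5 and 6, the 3 with at least 20 monocytes. In the 37177 microglia it stood at 170 CPM, from 62.3 to 286 CPM over the 6 libraries, so the libraries' ranges did not overlap. The ratio was 9.16 (8.74 to 9.61). With unshared barcodes the monocyte level was 1578 CPM, that of microglia only 62.9 CPM (32.8 to 108 over libraries), and the ratio 25.1 (23.8 to 26.5). Within libraries 4, 5 and 6 the ratio lay between 4.66 and 12.4 with all and between 12.6 and 22.1 with unshared barcodes, the latter all below the pooled ratio. These libraries held 99, 44 and 107 monocytes and 5598, 6245 and 5364 microglia.

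Ms4a6d was the second most abundant member in monocytes, at 1265 CPM, with 1237, 967 and 1463 CPM in libraries 4, 5 and 6. Its ratio to microglia was 3.31 (3.15 to 3.48), and 5.20 (4.93 to 5.48) with unshared barcodes. Ms4a4c followed at 857 CPM (807 to 910) against 22.9 CPM in microglia, a ratio of 37.4 (34.7 to 40.2), or 50.8 with unshared barcodes, and from 20.6 to 43.9 within the 3 libraries. In libraries 4, 5 and 6 the monocytes held 939, 585 and 900 CPM of Ms4a4c, all above the highest of the 6 microglial values.

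Ms4a6b, at 413 CPM in monocytes, had the smallest pooled ratio, 2.84 (2.60 to 3.10) with all and 4.52 (4.12 to 4.96) with unshared barcodes. Ms4a7, at 149 CPM (129 to 172), had the largest pooled ratio, 59.9 (49.1 to 73.0) and 64.1 (51.8 to 79.3). It held 93.7, 166 and 211 CPM in libraries 4, 5 and 6, with unshared ratios of 30.6 to 50.7 within them. These ranks did not hold in every library. In library 4 the unshared ratio was 39.9 for Ms4a7 and 43.9 for Ms4a4c, and 4.54 for Ms4a6d and 4.80 for Ms4a6b. In library 5 it was 30.6 for Ms4a7 and 131 for Ms4a4b, the latter from 2 microglial UMIs. Ms4a4b was low in monocytes too, at 30.5 CPM against 0.798 CPM in microglia. The NK list summed to 23.3 CPM in the monocyte gate, from 29 UMIs of Nkg7 and Klrd1, with Gzma, Ncr1, Prf1 and Klrb1c at 0. The gate itself held this sum down, as cells with at least 2 NK markers entered only if monocyte markers led by at least 2. The part of NK RNA in the Ms4a4b level of monocytes was not tested. Each of the 6 genes' ratios was above 1 in 3 of 3 libraries, with either set of barcodes.

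Of all genes with at least 20 UMIs in both gates together, 16.2% were at least 2-fold higher in monocytes than in microglia (16.5% with unshared barcodes), while all 6 members were. The median member stood 4.21 higher on the log2 scale, against -0.13 for the median gene. With unshared barcodes the median member stood 5.01 higher and the median gene -0.11. As members were listed with earlier results known, this count describes the list.

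**Figure D1:**
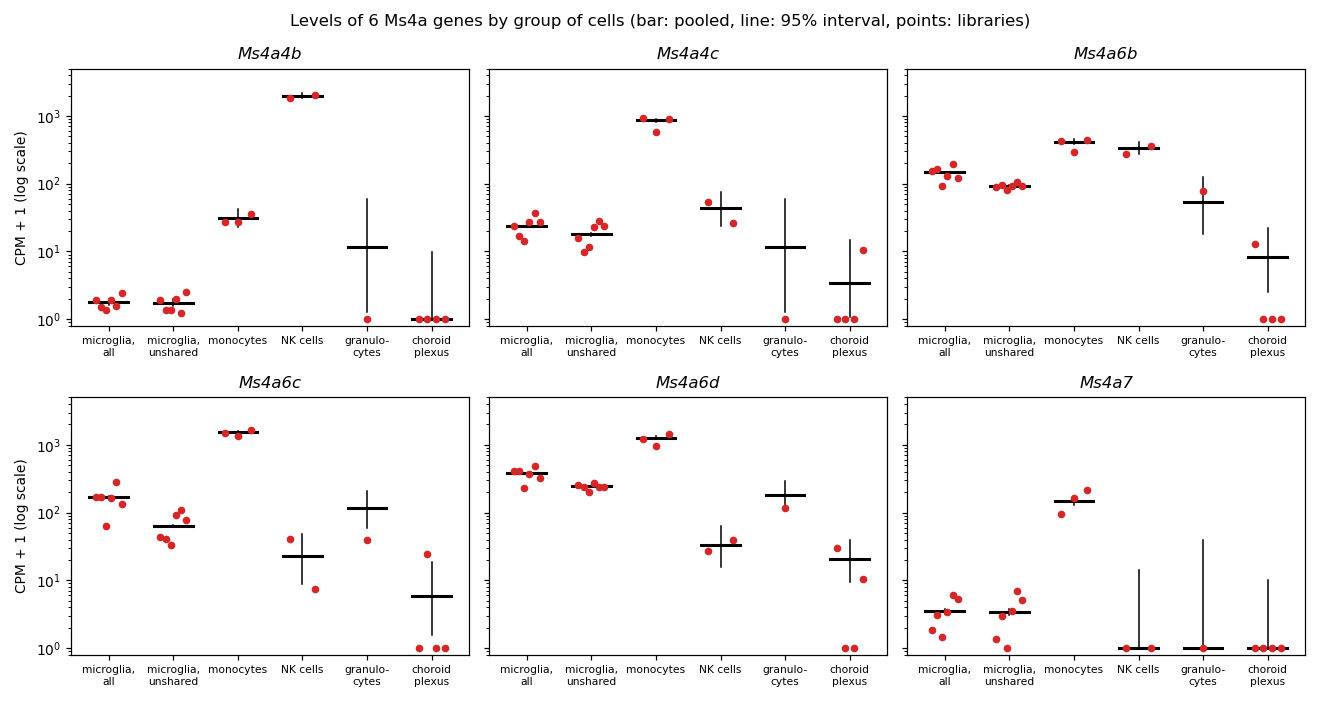
Level of each of the 6 genes (CPM + 1, log scale) in groups of cells; bars are pooled levels, lines their 95% Poisson intervals, and points single libraries with at least 20 cells of the group. Ms4a4b is near 2000 CPM in NK cells and under 2 CPM in microglia, the other 5 genes are highest in monocytes, and Ms4a6c in microglia drops from 170 to 62.9 CPM when shared barcodes are left out.

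The levels of single cells showed the same order at equal depth. After each cell was thinned to 500 UMIs, 48.2% of monocytes (42.1 to 54.3%) held a Ms4a6c UMI, against 12.3% of all microglia and 2.74% (2.54 to 2.96%) of the unshared. Without thinning, the shares were 93.0% of monocytes and 25.6% of microglia. At least 2 of the 6 genes were found together in 43.4% of thinned monocytes (37.4 to 49.5%), in 9.48% of thinned microglia (1.31% of the unshared) and in 0.521% of thinned choroid plexus cells (1 of 192). At full depth, 219 of 272 monocytes (80.5%) held at least 3 of the 6, so that the members were read in the same cells.

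The genes also took different shares of the family's output in each cell type. In unshared microglia Ms4a6d gave 58.1% of the UMIs of the 6 genes, Ms4a6b 22.1%, Ms4a6c 15.0% and Ms4a4c 4.08%. In unshared monocytes Ms4a6c gave 36.6%, Ms4a6d 29.3%, Ms4a4c 20.1% and Ms4a6b 9.69%. The order of Ms4a6b and Ms4a6c in microglia depended on the shared barcodes: with all barcodes Ms4a6c gave 23.5% and Ms4a6b 20.1%. Together the 6 genes reached 4271 CPM in monocytes, 2412 CPM in NK cells, 724 CPM in all and 418 CPM in unshared microglia, and 34.0 CPM in choroid plexus cells.

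**Figure D2:**
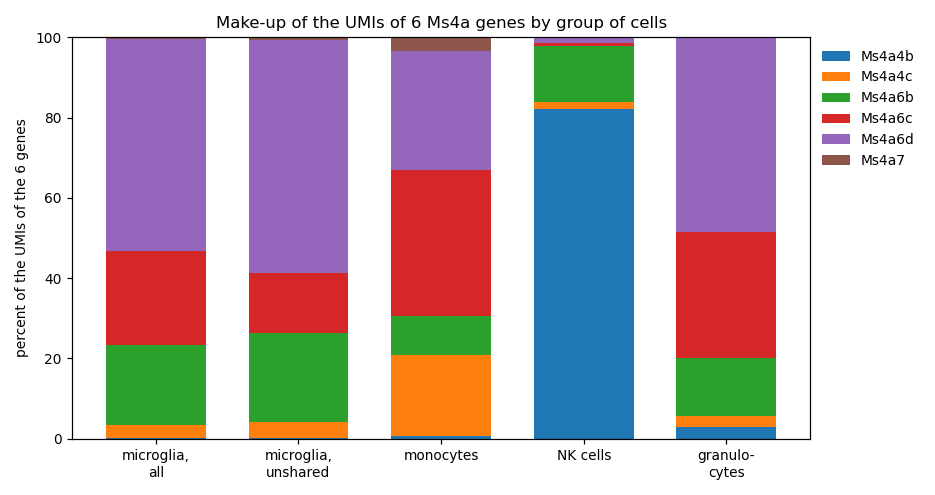
Percent of the UMIs of the 6 genes that each gene supplied (vertical axis), by group of cells (horizontal axis). Ms4a6d supplies 58.1% in unshared microglia, Ms4a6c leads with 36.4% in monocytes, and Ms4a4b supplies 82.0% in NK cells.

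NK cells read a different member. Ms4a4b, known from T and NK cells as a regulator of their activation, stood at 1979 CPM in the 138 NK cells (1817 to 2152), and at 1848 and 2049 CPM in libraries 4 and 6, the 2 with at least 20 NK cells. In the 6 libraries of microglia it ranged from 0.348 to 1.41 CPM, so the groups were far apart. The ratio to microglia was 2478 (1938 to 3209), and 2638 with unshared barcodes. Within libraries 4 and 6 it was 1977 and 1449, below the pooled value. In thinned cells, 58.0% of NK cells (49.3 to 66.3%) held a Ms4a4b UMI, against 0.035% of microglia. Of 192 choroid plexus cells 0 held one, with an interval up to 1.90%. Without thinning, 91.3% of NK cells held one.

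The second member of NK cells was Ms4a6b, at 336 CPM (271 to 411) and 13.9% of the UMIs of the 6 genes, against 82.0% for Ms4a4b. Its ratio to microglia was 2.31 (1.86 to 2.83) with all and 3.55 (2.83 to 4.40) with unshared barcodes, above 1 in both libraries. Ms4a6c and Ms4a6d went the other way, at 21.7 and 32.5 CPM in NK cells against 170 and 382 CPM in microglia. Their ratios were 0.128 (0.234 without library 6) and 0.0851, and 0.368 (0.135 to 0.801) and 0.0953 with unshared barcodes. The 6 microglial gating genes stood at 1372 CPM in the NK gate, and their part in these low levels was not tested. Ms4a7 had 0 UMIs in NK cells, which allows up to 13.3 CPM. Ms4a4b and Ms4a6b were at least 2-fold higher in NK cells, as were 20.3% of all genes. With unshared barcodes Ms4a4b, Ms4a6b and Ms4a4c were, beside 20.9% of all genes. The Ms4a6b ratio with all barcodes went down to 1.98 with 1 library left out. The Ms4a4c ratio was 2.71 (1.40 to 4.75) with unshared barcodes, from 12 UMIs in 7 cells. With all barcodes it was 1.89, and 2.96 without library 6. Of the genes at least 2-fold apart in either direction, 58.6% were higher in NK cells when scaled to total UMIs and 31.1% when scaled by median-of-ratios size factors. Such factors moved the median of all genes by 0.65 (log2), against a log2 ratio of 1.21 for Ms4a6b with all barcodes.

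In microglia, 4 members were higher where the barcode sequence occurred in more than 1 library than where it occurred in 1. Ms4a6c stood at 62.9 CPM in microglia whose sequence occurred in 1 library, and at 136, 643, 692, 778 and 850 CPM in those whose sequence occurred in 2, 3, 4, 5 and 6 libraries. Ms4a6d went from 243 CPM to 1007 CPM at 3 libraries and 1207 CPM at 6. Ms4a6b went from 92.3 to 452 and 396 CPM, and Ms4a4c from 17.1 to 42.6 and 68.7 CPM. Ms4a6c and Ms4a4c rose at each step, while Ms4a6b and Ms4a6d were highest at 5 libraries, with 480 and 1239 CPM. Over the same steps the microglial receptor P2ry12 went from 4006 to 1603 CPM and the lipoprotein Apoe from 9726 to 58616 CPM.

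The members Ms4a4c, Ms4a6b, Ms4a6c and Ms4a6d, 4 of 6, were at least 2-fold higher in shared than in unshared microglia, as were 4.04% of all genes. Ms4a4b (0.968 against 0.761 CPM) and Ms4a7 (2.96 against 2.39 CPM) were not. The 2 kinds of barcode differed in depth as well. Among all microglia, those with at least 500 and under 1000 UMIs held 11.7 times the Ms4a6c level of those with at least 3000 and under 4000 UMIs (11.0 to 12.3). Among unshared microglia the same ratio was 2.45 (1.90 to 3.12), above 1 in 4 of 6 libraries. In the lower of these depth ranges shared microglia held 755 CPM of Ms4a6c and unshared ones 125 CPM. The level did not fall steadily with depth. Unshared microglia of at least 4000 UMIs held 62.9, 68.6, 38.9, 140, 176 and 120 CPM of Ms4a6c in libraries 1 to 6. Those with at least 3000 and under 4000 UMIs held 34.1, 36.8, 27.5, 88.5, 85.7 and 50.5 CPM. The part of the shared barcodes in the microglial levels of the family was not tested beyond these values.

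**Figure D3:**
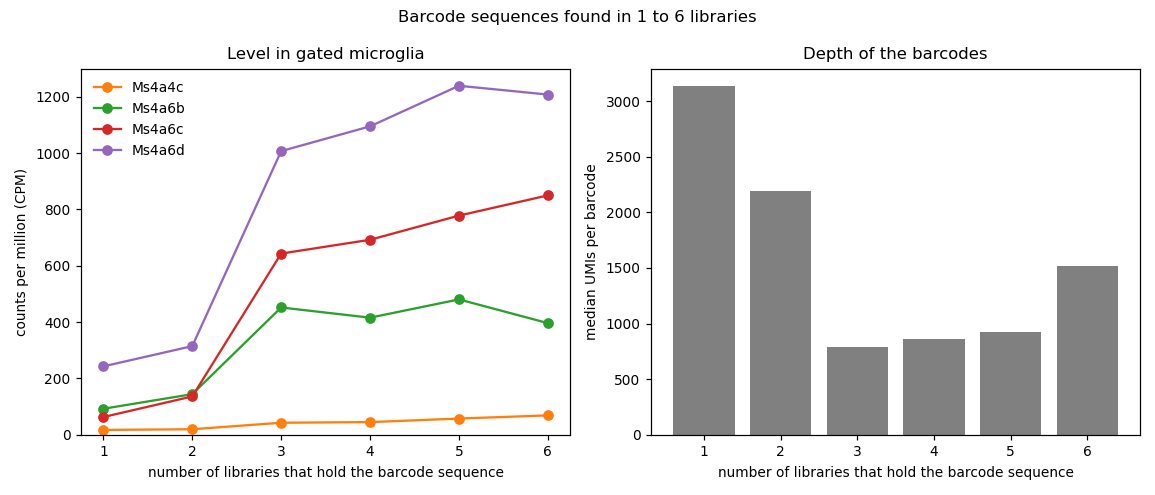
Left, level of 4 Ms4a genes in gated microglia (CPM) against the number of libraries that hold the cell's barcode sequence; right, median UMIs per barcode for the same classes (bars). Ms4a6c goes from 62.9 to 850 CPM and Ms4a6d from 243 to 1207 CPM, while the median barcode holds 3137 UMIs in the first class and 785 to 2193 in the others.

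Unshared microglia thus give the family's level in cells whose barcode belongs to 1 library. Ms4a6d stood at 252, 242, 199, 273, 238 and 237 CPM in libraries 1 to 6, and Ms4a6b at 88.9, 94.8, 79.4, 91.8, 106 and 91.1 CPM. Both varied little between libraries. Ms4a4c, with 8.95 to 27.5 CPM, and Ms4a7, with 0 to 5.86 CPM, varied more between libraries in proportion to their level. Only 63 of the 23238 unshared microglia held a Ms4a7 UMI (0.271%). After thinning, 11.1% of unshared microglia held a UMI of Ms4a6d, 4.60% of Ms4a6b and 0.766% of Ms4a4c.

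Microglia were also split by 5 sets of state genes, where a cell needed at least 2 genes of a set: interferon response, MHC class II, cell cycle, a Spp1 set of lipid and phagocyte genes, and a Ddit4 set of stress and hormone response genes. Cells may fall into several sets. Also in another set were 448 of 1422 interferon, 260 of 722 MHC class II, 127 of 494 cycling, 727 of 1895 Spp1 and 888 of 9281 Ddit4 microglia. Results for different sets thus rest partly on the same cells. The 24646 cells in none are called the remaining microglia. Unshared remaining microglia had a median of 3012 UMIs. The unshared interferon, MHC class II, cycling, Spp1 and Ddit4 microglia had medians of 3961, 3894, 4242, 4007 and 3349.5 UMIs. In the interferon set Ms4a4c and Ms4a6c were several-fold higher than in the remaining microglia. In the 1422 interferon microglia Ms4a4c stood at 97.0 CPM against 14.7 CPM in the remaining microglia, a ratio of 6.61 (5.91 to 7.38), and with unshared barcodes at 86.5 against 11.7 CPM, a ratio of 7.38 (6.49 to 8.39). In libraries 1 to 6 the unshared interferon microglia held 71.9, 78.5, 90.2, 103, 88.0 and 80.4 CPM of Ms4a4c, and the remaining ones 11.5, 6.94, 8.53, 15.2, 16.6 and 15.0 CPM. The interferon value was the higher in each library, and the 2 sets of library values did not overlap.

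Ms4a6c stood at 218 CPM in the unshared interferon microglia and 47.9 CPM in the remaining ones, a ratio of 4.55 (4.22 to 4.90), against 2.87 (2.71 to 3.04) with all barcodes. It was above 1 in 6 of 6 libraries with either set, from 2.98 to 4.15 with unshared barcodes, below the pooled ratio. Ms4a6b moved less, with ratios of 1.71 and 1.85 (1.71 to 2.01), and Ms4a6d least, with 1.42 and 1.41 (1.33 to 1.48), each above 1 in 6 of 6 libraries. At least 2-fold higher were Ms4a4b, Ms4a4c, Ms4a6c and Ms4a7, with either set of barcodes, as were 5.93% of all genes (6.24% with unshared barcodes). Ms4a4b rested on 17 UMIs in the interferon microglia, and its ratio, 7.75, was 4.92 without library 6 and 6.72 with unshared barcodes. Ms4a7 rested there on 30 UMIs in 8 cells, with 0 UMIs in libraries 1, 2 and 3. Its pooled ratio with all barcodes was 4.56, above 1 in 3 of 6 libraries, and the median within libraries was 1.35. With unshared barcodes the pooled Ms4a7 ratio was 5.86. Of the listed promoters, those of Ms4a6b, Ms4a6c and Ms4a7 hold the short form of the element core shown above and that of Ms4a4c does not. None of the listed members' promoters holds the longer form. The summed monocyte list stood at 55.4 CPM in interferon and 11.0 CPM in the remaining microglia. The gate held both sums down, as microglia had to hold fewer than 2 monocyte markers. The part of monocyte RNA in these ratios was not tested.

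Among the 5 sets Ms4a7 had its highest pooled level in MHC class II microglia. The 722 MHC class II microglia held 38.0 CPM of Ms4a7 against 1.32 CPM in the remaining ones, a ratio of 28.7 (21.3 to 38.9), and with unshared barcodes 40.5 against 1.13 CPM, a ratio of 35.9 (25.8 to 50.2). Libraries differed widely. Unshared MHC class II microglia held 3.49 CPM in library 1, 30.7 in library 2, 215 in library 4, 221 in library 5 and 105 in library 6. Library 1 supplied 336 of the 545 cells, and without it the ratio with all barcodes was 52.0. The 93 UMIs came from 21 cells. In the same microglia the 6 monocyte gating genes summed to 84.7 CPM, with Ly6c2, Vcan and Chil3 at 0, against 11.0 CPM in the remaining microglia. The border macrophage list summed to 11.3 CPM against 3.51 CPM, with Cbr2, Lyve1 and Cd163 at 0. The gate itself held these sums down, as microglia had to hold fewer than 2 markers of each other gate. The sums therefore cannot show the part of such cells in the Ms4a7 level, which was not tested.

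Ms4a4c (3.92 with all and 4.76 with unshared barcodes) and Ms4a6c (2.33 and 3.02) were the other members at least 2-fold higher in MHC class II microglia, beside 5.06% and 4.75% of all genes. Without library 1 the ratios with all barcodes were 6.01 for Ms4a4c and 3.80 for Ms4a6c. Ms4a6d was 1.48 and 1.47 times as high. In the pool Ms4a6b was near the level of the remaining microglia, with ratios of 1.13 (1.01 to 1.25) and 1.16 (1.01 to 1.32). Within libraries its ratio with all barcodes ran from 0.855 to 1.64, with a median of 1.39, and was above 1 in 5 of 6. With 1 library left out it reached up to 1.44. Ms4a6b was lower in MHC class II microglia when each cell's CPM was averaged (0.963).

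The Spp1 and Ddit4 sets held many shared barcodes, 56.8% and 74.8% of their cells, and the members' ratios changed with them. In Spp1 microglia Ms4a6c was 4.17 times (3.97 to 4.37) as high as in the remaining ones with all barcodes and 3.32 times (3.02 to 3.64) with unshared ones, above 1 in 6 of 6 libraries both times. Within libraries the unshared Ms4a6c ratio ran from 1.43 to 3.37, with a median of 2.80. Ms4a6d went from 2.18 to 1.23 (1.15 to 1.31), and Ms4a6b from 1.65 to 0.916 (0.808 to 1.03), where 1 of 6 libraries was above 1. Ms4a7 was 8.00 times (5.60 to 11.4) and 9.32 times (6.02 to 14.2) as high in the pool, the latter from 36 UMIs in 12 cells. Of these UMIs 17 lay in library 4 and 11 in library 5, with 5, 1, 0 and 2 in libraries 1, 2, 3 and 6. By library, Ms4a7 in Spp1 microglia ran from 3.16 to 17.2 CPM with all and from 0 to 19.1 CPM with unshared barcodes. In library 2 the unshared level was below that of the remaining microglia, and in library 3 both were 0. At least 2-fold higher were 4 members with all barcodes and Ms4a4c, Ms4a6c and Ms4a7 with unshared ones, beside 6.53% and 6.63% of all genes. The unshared Ms4a4c ratio was 2.19 (1.73 to 2.74) in the pool. Within libraries it ran from 0.877 to 2.61, with a median of 1.83, and was above 1 in 5 of 6. The summed monocyte list stood at 80.8 CPM in Spp1 and 11.0 CPM in the remaining microglia, both held down by the gate. The part of monocyte RNA in the Spp1 ratios was not tested.

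In Ddit4 microglia the ratios of Ms4a6c, Ms4a6b, Ms4a6d and Ms4a4c were 3.75, 2.21, 2.15 and 2.14 with all barcodes. With unshared barcodes they were 1.04 (0.936 to 1.15), 1.08 (1.01 to 1.17), 1.02 (0.974 to 1.07) and 1.19 (0.969 to 1.45). The members at least 2-fold higher thus went from 5, beside 2.47% of all genes, to Ms4a4b alone with 18 UMIs, beside 1.15%. Cycling microglia held 1.23 times the Ms4a6c level of the remaining ones with all and 2.07 times (1.78 to 2.40) with unshared barcodes, from 1.48 to 2.06 within single libraries. No member was at least 2-fold higher there with all barcodes and Ms4a6c was with unshared ones, beside 12.7% and 12.5% of all genes. Unshared cycling microglia had a median of 4242 UMIs and unshared remaining ones 3012. The part of depth in the unshared cycling ratio of Ms4a6c was not tested.

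**Figure D4:**
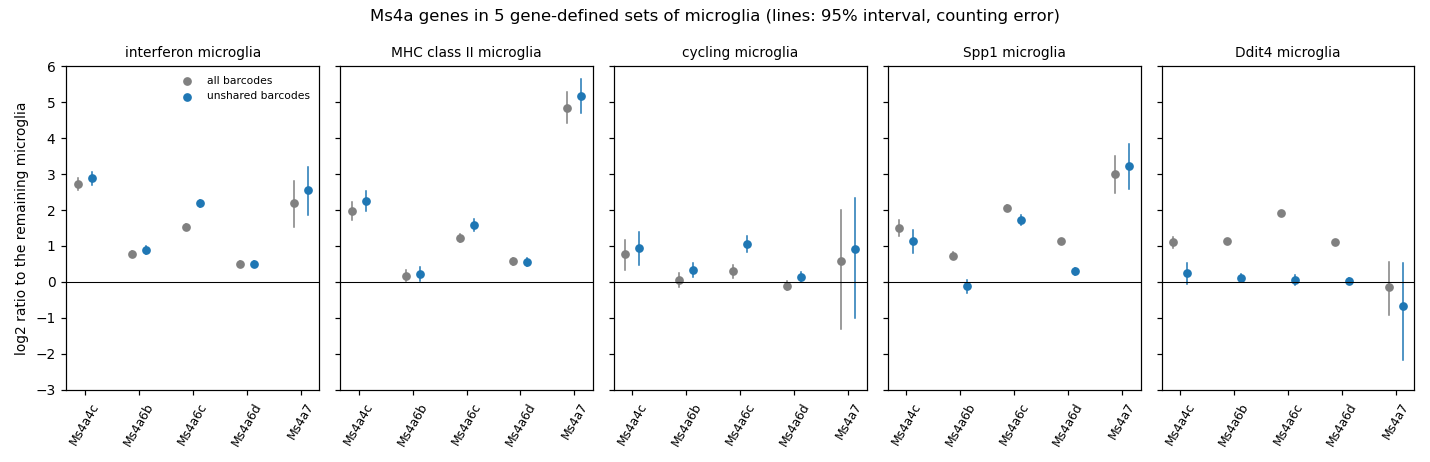
Log2 ratio of the level of 5 Ms4a genes in each of 5 sets of microglia to that in the remaining microglia, with all barcodes (grey) and with unshared barcodes (blue); lines are exact 95% intervals for counting error. The Ms4a6c ratio in interferon microglia goes from 2.87 to 4.55 without shared barcodes, whereas the Ddit4 ratios of Ms4a4c, Ms4a6b, Ms4a6c and Ms4a6d, from 2.14 to 3.75 with all barcodes, come to between 1.02 and 1.19.

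Within the monocyte gate, 92 cells held a UMI of Cd209a, a lectin of monocyte-derived dendritic cells, 122 held Ly6c2, the marker of classical monocytes, without Cd209a, and 58 held neither. Ms4a6d was lower in the Cd209a cells, at 967 against 1459 CPM, a ratio of 0.663 (0.589 to 0.745), and Ms4a6b likewise, with a ratio of 0.642 (0.522 to 0.787). Both were lower in 2 of 2 libraries with at least 20 cells of each kind. Ms4a6c, at 0.909 (0.822 to 1.00), was lower in 1 of 2 libraries, and the interval reached 1. Ms4a4c was at 0.844 (0.738 to 0.964), lower in 2 of 2. With unshared barcodes the 4 ratios were 0.660, 0.640, 0.911 and 0.829.

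Among monocytes Ms4a7 was highest in those with neither gene. There it stood at 401 CPM with all barcodes, against 109 CPM in the Ly6c2 cells and 64.2 CPM in the Cd209a cells. With unshared barcodes it stood at 430 CPM (349 to 525), with 405 CPM in library 4 and 449 CPM in library 6, against 106 CPM in the Ly6c2 cells and 67.0 CPM in the Cd209a cells. In library 4 the other 2 subsets held 64.0 and 6.48 CPM, and in library 6 they held 173 and 84.4 CPM, so the order was the same in both. In all, 26 of these 55 cells held a Ms4a7 UMI (47.3%), against 22 of 116 Ly6c2 cells (19.0%) and 10 of 88 Cd209a cells (11.4%). Median depths were 4239, 4346.5 and 5117 UMIs, in the same order.

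The gate for border macrophages, at least 2 of Mrc1, Cbr2, Pf4, Lyve1, Cd163 and Folr2, held 7 cells in 3 libraries, 1 of them with a shared barcode. Its label did not hold against the data. Lyve1 had 0 UMIs in the whole matrix and Cd163 had 16, Folr2 was in none of the 7 cells, and the genes that led the group over microglia included Cd209a, Mgl2 and H2-Aa. With 3 markers required no cell was left. It is called the Mrc1 gate here, since each of the 7 cells held Mrc1. Ms4a6d stood at 648 CPM in it (17 UMIs), a ratio to microglia of 1.70 (0.988 to 2.72), and 2.43 (1.36 to 4.01) without the shared barcode. The ratio fell below 1, to 0.976, without library 6 and was 2.73 without library 5. Ms4a7 stood at 152 CPM, from 4 UMIs in 2 of the 7 cells, a ratio to microglia of 61.1 (16.5 to 159), which was 137 without library 5 and 35.7 without library 6. Ms4a4b had 0 UMIs there.

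Among all 38751 passing cells, 194 held a Ms4a7 UMI. Of these, 106 were gated as microglia, 60 as monocytes, 16 met no gate, 7 were mixed, 3 met several gates and 2 were in the Mrc1 gate. By rate, 22.4% of unshared monocytes and 0.271% of unshared microglia held one.

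Granulocytes held 180 CPM of Ms4a6d (17 UMIs), 116 CPM of Ms4a6c (11 UMIs) and 52.9 CPM of Ms4a6b (5 UMIs), and 0 UMIs of Ms4a7. With unshared barcodes Ms4a6d was at 72.2 CPM and Ms4a6c at 36.1 CPM, from 6 and 3 UMIs in 57 cells. Choroid plexus cells held 19.4 CPM of Ms4a6d, 7.28 of Ms4a6b and 4.85 of Ms4a6c, the level read in cells that should lack these genes.

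The other 13 Ms4a genes of the features were scarce. Ms4a8a led them with 96 UMIs in the whole matrix, of which 55 lay in monocytes, at 44.1 CPM (33.3 to 57.5) against 0.186 CPM in microglia. Ms4a4a, the mouse namesake of human MS4A4A, had 43 UMIs, of which 10 lay in monocytes (8.03 CPM) and 20 in microglia, 2 of the 20 in unshared ones. Ms4a2 had 17 UMIs in 9 barcodes, and all 9 also held a mast cell or basophil marker (Mcpt8, Cpa3 or Fcer1a). Ms4a3, known from granulocyte and monocyte progenitors, had 5, of which 3 lay in granulocytes. Ms4a10, Ms4a12, Ms4a13, Ms4a18, Ms4a4d and Ms4a5 were at 0.

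Of genes tied to the family by background knowledge, Trem2, a lipid receptor of microglia, stood at 2083 CPM in microglia and 121 CPM in monocytes, the reverse of the members. Its signalling partner Tyrobp stood at 1966 CPM in microglia and 3665 CPM in monocytes. Fcer1g, the chain that partners Ms4a2 in the IgE receptor, stood at 1655 and 3033 CPM. The related genes Tmem176a and Tmem176b were nearer to even, at 482 and 705 CPM in microglia and 323 and 643 CPM in monocytes. With unshared barcodes, microglia held 2089 CPM of Trem2, 1870 of Tyrobp, 1641 of Fcer1g, 512 of Tmem176a and 750 of Tmem176b.

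Genes with the most similar pattern were found by Pearson correlation of log2(CPM + 10) over 11 profiles of unshared cells, each 1 gate in 1 library, and 4386 candidate genes. The profiles share libraries and 6 are microglia, so r is a description. Candidates had to reach 50 CPM. Ms4a4b was most like P2ry10 (r = 0.999), 4930523C07Rik (0.998) and the NK receptor gene Klrb1f (0.997). P2ry10 held 69.4 CPM in unshared NK cells, 5.93 CPM in monocytes and 0.0534 CPM in microglia. As 2 of the 11 profiles are NK cells, genes read mainly in NK cells rank high for Ms4a4b by this measure. Ms4a4c was most like Cstb (0.995), Akr1a1 (0.991) and the scavenger receptor Msr1 (0.990). Ms4a6b was most like Nab1 (0.992) and Anxa1 (0.991), and Ms4a6d most like Soat1 (0.993) and Rassf4 (0.992). Ms4a6c was most like the interferon-induced membrane gene Ifitm3 (0.997), at 4347 CPM in unshared monocytes and 76.9 CPM in unshared microglia, and Ms4a7 most like B3gnt8 (0.994), Cd300lb (0.994) and the lectin Clec4a1 (0.994). With all barcodes, over 12 profiles, the first genes were P2ry10, Slk, S100a1, Gm2a, Gga1 and Clec4a1 for Ms4a4b, Ms4a4c, Ms4a6b, Ms4a6c, Ms4a6d and Ms4a7. Among the members themselves, with unshared barcodes, the closest pair was Ms4a6c and Ms4a7 (r = 0.964) and the farthest Ms4a4b and Ms4a6d (r = -0.616). With all barcodes the closest pair was Ms4a4c and Ms4a7 (r = 0.948), with Ms4a6c and Ms4a7 at 0.880. The farthest was again Ms4a4b and Ms4a6d (r = -0.624).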

How the data were processed

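Count data were the authors' deposited matrix of UMI counts per gene and barcode (Cell Ranger 3.1, file header 3.1.0; mm10; 6 libraries combined), read with the features and barcodes; the submitters' notes also name Seurat 3.1.5. No annotation of cells was used. The study's filters were applied: over 200 and at most 2500 genes, which the study used against doublets, and under 5% mitochondrial UMIs. No doublet caller was run, and mixed cells were set aside. Gates needed at least 2 of 6 markers, and cells meeting several gates went to the one with most markers if it led by at least 2. Microglia needed at least 2 of the 6 microglial genes and had to meet no other gate. Raw counts were summed per group and divided by total UMIs; fold counts used genes with at least 20 UMIs. For shares of cells with a UMI each cell was thinned to 500 UMIs. As labels tie no suffix to a mouse and none was tied by its values, libraries were pooled and no test, p-value or model was used. The 6 genes and all lists, including the rule naming every Ms4a gene, Tmem176a, Tmem176b, Trem2, Tyrobp, Fcer1g, markers and the 5 most similar genes per member, were chosen with earlier results of these data known; 1 gene of the rule is not analysed here. Alternatives concerned filters, depth, gates, mixed cells, scaling, weighting, single libraries and shared barcodes. Scripts were tested on simulated data. Sequences came from RefSeq's promoter table and transcripts from GENCODE M21. Python 3.11.15, numpy 2.4.6, scipy 1.17.1 and pandas 2.3.3 were used.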

Additional observations from a re-analysis of the deposited data

Results flagged for a closer look

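Signal lay in Ms4a genes that were not chosen here and in barcodes left out of the groups. In the whole matrix Ms4a8a had 96 UMIs, Ms4a4a 43, Ms4a2 17, Ms4a15 6, Ms4a3 5 and Ms4a1 4. All 6 totals are above 3 counts, the floor set for this report, and 3 of the 6 UMIs of Ms4a15 were in NK cells.

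The 1660 barcodes removed by the filters held 3308 UMIs of Ms4a6d, 1972 of Ms4a6c, 1256 of Ms4a6b, 739 of Ms4a4b, 637 of Ms4a4c and 195 of Ms4a7, at a median of 7445.5 UMIs per barcode. The 739 UMIs of Ms4a4b compare with 548 in the NK gate.

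The 597 cells that met no gate held 611 UMIs of Ms4a6d, 512 of Ms4a6c, 182 of Ms4a6b, 81 of Ms4a4c, 49 of Ms4a7 and 12 of Ms4a4b. Of these cells 437 (73.2%) had shared barcodes. In the 160 unshared ones Ms4a6c stood at 438 CPM, Ms4a6d at 344 CPM and Ms4a7 at 118 CPM.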

How the results depend on the processing

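Of the 8 ratios fixed for this report, 121 recalculations gave 17 that moved beyond the spread over libraries or, without one, the counting interval; 3 crossed 1, all for Ms4a6d in the Mrc1 gate, whose interval reaches 1. The Ms4a4b ratio of NK cells to microglia, 2478, was 1176 without filters, 1164 without the upper limit on genes, 1292 with mixed cells kept, 1582 with median-of-ratios size factors and 1713 as the median within libraries. The Ms4a6c ratio of monocytes to microglia, 9.16, was 5.03 as a mean of single-cell CPM, 25.1 without shared barcodes and 19.6 in cells of at least 3000 UMIs. The Ms4a6c ratio of interferon to remaining microglia, 2.87, was 3.83 from 1000 UMIs up, 2.08 as a mean of single-cell CPM, 4.55 without shared barcodes and 5.89 between 2000 and 4000 UMIs. In the Mrc1 gate the Ms4a6d ratio, 1.70, was 0.988 with mixed cells kept (24 cells), 0.870 with size factors, and from 0.976 to 2.73 with each library left out in turn; the Ms4a7 ratio, 61.1, was 13.8 with mixed cells kept and from 35.7 to 137 with each library left out, and 3 markers left no cell. Over all 50 ratios, 762 recalculations gave 28 that crossed 1, 25 of them for ratios whose interval reaches 1, and 3 for ratios whose interval does not: Ms4a6b in MHC class II (0.963) and Ms4a6c in cycling microglia (0.842) as means of single-cell CPM, and Ms4a6b in Spp1 microglia (0.916) without shared barcodes. The cause was not tested. The last alternative and that of 3000 UMIs were chosen after seeing the data. Size factors moved the median of all genes by 0.14 (log2) for monocytes, 0.65 for NK cells, 0.48 for granulocytes and 0.15 for cycling microglia. Genes at least 2-fold apart between monocytes and microglia numbered 4776, of which 43.9% were higher, and 37.7% with size factors. No paired analysis was possible because the labels tie no barcode suffix to a sample. Only 2 libraries hold 20 NK cells and 3 hold 20 monocytes, which limits what their spread can show.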

Other observations

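In unshared microglia Ms4a6c stood at 43.1, 40.0 and 32.8 CPM in libraries 1, 2 and 3 and at 92.5, 108 and 76.5 CPM in libraries 4, 5 and 6. The 2 sets of values did not overlap. The same held for Ms4a4c, with 14.7, 8.95 and 10.8 CPM in libraries 1 to 3 and 22.0, 27.5 and 22.9 CPM in libraries 4 to 6, and for Ms4a7, with 0.346, 1.98 and 0 CPM against 2.48, 5.86 and 4.18 CPM. Ms4a6d and Ms4a6b did not separate in this way. The labels do not tie these libraries to mice, and they were not tied to mice by their cell counts or depths, so whether this split follows the study's 2 groups was not tested here. Libraries 4, 5 and 6 also held 99, 44 and 107 of the 272 monocytes.

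The 103 mixed cells with NK and microglial markers held 507 CPM of Ms4a4b and 238 CPM of Ms4a6d, between the levels of the NK gate and of microglia for both genes. The 47 mixed cells with monocyte and microglial markers held 810 CPM of Ms4a6c and 67.8 CPM of Ms4a7, again between those of the gates.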
